A study of Mus musculus with 2 samples.

Results

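The cells described here were dividing cells of the granulocyte lineage in mouse bone marrow (BM) that carried transcripts of G2 and M phase, referred to as G2/M myelocyte-like cells. They were chosen cell by cell from counts of unique molecular identifiers (UMIs, each standing for 1 captured transcript) summed over sets of genes. The granule set C was *Camp*, *Ngp*, *Ltf*, *Fcnb* and *Cebpe*. The azurophil set E was *Elane*, *Mpo*, *Prtn3* and *Ctsg*, and the monocyte set M was *Csf1r*, *Ccr2*, *F13a1*, *Ms4a6c* and *Ly86*. The proliferation set K was *Mki67*, *Top2a*, *Birc5*, *Ccna2*, *Stmn1* and *Pclaf*. The S phase set S was *Cdc6*, *Ccne2*, *Dtl*, *E2f1*, *Hells*, *Uhrf1* and *Chaf1b*, and the G2 and M phase set P was *Ccnb1*, *Ccnb2*, *Cdc20*, *Cenpf*, *Cenpa*, *Plk1* and *Aurka*. A cell was a member when C was at least E and above M, K was at least 5, P was at least 3 and P was at least S. Of 1391 retained cells, 317 were members, with 130 of 662 in RC and 187 of 729 in SAA. These values chose the cells, so levels of the rule genes, and of genes that go with them, are given below as descriptions.

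The cells came from hybrid F1 mice of C57BL/6 and BALB/c parents. Radiation control (RC) mice received 300 rads of total body irradiation alone. Mice with severe aplastic anemia (SAA) received the same dose and 65000000 splenocytes from C57BL/6 donors, so both groups had been irradiated. Live CD11b+Ly6C+Ly6G- cells were sorted from femurs and tibias, and 3 mice were pooled into 1 single-cell library per condition. A condition, its pool of mice and its library cannot be told apart, no p-value is given, and every 95% interval covers counting error only. The day of harvest of these libraries is not given in the sources used here.

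Neutrophils are built in steps: promyelocytes fill azurophil granules with serine proteases and myeloperoxidase, and myelocytes, the last stage that divides, fill specific granules with lactoferrin, lipocalin and the cathelicidin encoded by *Camp*. A cell leaving S phase builds up cyclin B, Polo-like and Aurora kinases, condensins and kinetochore proteins, and the anaphase-promoting complex later marks many of them for destruction. Many of these genes carry a CCAAT box and a cell cycle homology region (CHR) close to their start, where the MuvB complex and its partners repress them in resting cells and activate them before mitosis.

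The members held more UMIs than other granulocyte-like cells. A member held a median of 8035 UMIs in RC (range 2824 to 19720) and 8258 in SAA (2076 to 24141), against medians of 6362 and 6653 in S phase and 4480 and 4259 in non-cycling granulocyte-like cells. The sums over members were 1103406 and 1661106 UMIs. Median genes per cell were 2043 and 2225, and median mitochondrial shares were 1.12% and 1.53%. 1 barcode sequence occurred in both libraries, and none did among the members. Of the cells that a doublet caller marked, 1 of 2 in RC and 7 of 12 in SAA were members.

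The label was checked against markers. Of 11 myelocyte markers, 10 had a UMI in RC members and 11 in SAA members, with the collagenase gene *Mmp8* at 0 and 1 UMIs. All 13 markers of G2 and mitosis were present in both, at a summed 3215 and 3044 UMIs per 1000000 UMIs of the sum (CPM). Pairs of values are given with RC first. *Camp* was seen in 129 of 130 RC members. A few members carried markers of other lineages: 1 RC member and 5 SAA members had a granule sum C of only 1 UMI, and the next lowest values of C were 212 and 153. The RC cell held 13 UMIs of *Cd79a* and 10 of *Ebf1*, which are B cell genes. The 5 SAA cells together held 45 UMIs of *Cd3d*, 35 of *Trac*, 81 of *Nkg7* and 67 of *Gzmb*, genes of T and NK cells, and each gene was seen in every one of the 5. *Nkg7* was also seen in 75 of 129 RC and 80 of 182 SAA members with C of at least 50. The members with C of 1 met the rule and were kept. Monocyte markers summed to 31.7 CPM in RC members (7 of 10 markers with a UMI) and 301 CPM in SAA members (10 of 10). Most of these UMIs were of *Mpeg1*, a macrophage pore protein gene, with 26 UMIs in 21 RC members and 270 UMIs in 120 SAA members. Of the SAA members, 4 held the 28 UMIs of *F13a1* and 7 the 36 of *Ccr2*, and 1 RC member and 6 SAA members had a monocyte sum M above 2. Erythroid markers summed to 2.72 and 0 CPM and basophil or mast cell markers to 0.906 and 4.21 CPM. Members with P at its minimum of 3 numbered 13 in each library, and 3 RC and 11 SAA cells with P of 2 fell just outside.

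**Figure D1:**
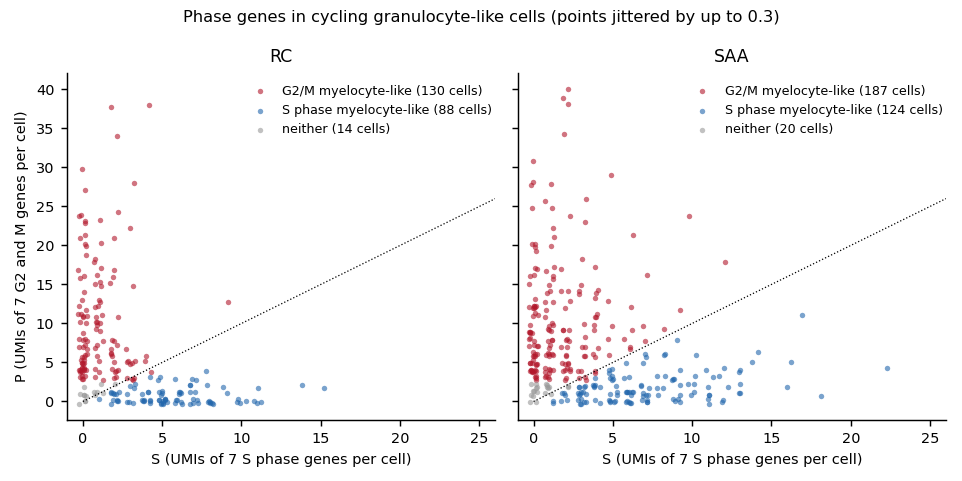
Each point is 1 cycling granulocyte-like cell, with its S phase sum S on the x axis and its G2 and M phase sum P on the y axis, both in UMIs, for RC (left) and SAA (right). Members, with P at least 3 and at least S, number 130 and 187, and S phase cells, with S above P, number 88 and 124.

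The share of G2/M myelocyte-like cells among all retained cells was 19.6% in RC (95% Clopper-Pearson interval 16.7 to 22.9%) and 25.7% in SAA (22.5 to 29.0%). Among granulocyte-like cells, the shares were 48.5% (42.4 to 54.7%) and 47.8% (42.8 to 52.9%). Among cycling granulocyte-like cells, they were 56.0% (49.4 to 62.5%) and 56.5% (51.0 to 61.9%), and cells in S phase made up 37.9% and 37.5%. The intervals overlapped almost wholly within the granulocyte lineage and only slightly over all retained cells. These shares depended on the sort, which takes in CD11b+Ly6C+ cells and leaves out cells that carry Ly6G on their surface. When each cell was first thinned to 2600 UMIs, the rule found 65 of 584 cells in RC (11.1%) and 84 of 696 in SAA (12.1%). The shares over all retained cells lay closer together at this equal depth.

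The members carried *Itgam*, which encodes CD11b, at 340 and 383 CPM in RC and SAA, and *Ly6c2* at 970 and 1441 CPM. *Ly6g* transcripts, from the gene of the antigen gated out by the sort, were found in 58.5% of RC members and 53.5% of SAA members, and in 0 of 68 and 3 of 100 G2/M monocyte-like cells. Median depths were 8035 and 8258 UMIs in members and 6009 and 9362.5 UMIs in the monocyte-like cells. At 2600 UMIs per cell, the shares of members with *Ly6g* were 36.2% (27.9 to 45.0%) and 29.6% (23.1 to 36.7%). A UMI of *Ly6g* was thus common among members that had passed a gate on low surface Ly6G.

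Against S phase cells of the same lineage, the members differed in mitotic genes, and no listed granule gene outside the rule passed 2-fold in both libraries. S phase cells were granulocyte-like cells with K of at least 5 and S above P, 88 in RC and 124 in SAA. Of 5936 genes with enough UMIs, 98 were at least 2-fold higher in members in both libraries (1.65%) and 69 at least 2-fold lower (1.16%). Of 55 genes of G2 and M phase that the rule did not use, 35 were at least 2-fold higher in both libraries and 0 lower, with median log2 ratios of 1.31 and 1.33. Because the cells had been separated by genes of the same phases, these counts describe the split and test nothing. *Ube2c*, which encodes the ubiquitin-conjugating enzyme of the anaphase-promoting complex, stood at 746 CPM in RC members and 63.7 CPM in RC S phase cells, and at 586 and 76.9 CPM in SAA. Its ratio was 11.7 (8.42 to 16.7) in RC and 7.63 (5.94 to 9.94) in SAA. *Cenpe*, a kinesin of the kinetochore, had ratios of 4.82 and 4.91, and *Kpna2*, an importin, 4.15 and 3.94. The spindle genes *Tpx2* (3.81 and 3.51), *Aspm* (6.32 and 4.43) and *Nusap1* (3.19 and 5.22) were higher as well.

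Condensin and kinetochore genes were split less sharply by phase. Of 35, 10 were at least 2-fold higher than in S phase cells in both libraries, with medians of 0.81 and 0.59 on the log2 scale. Of 32 replication-dependent histone genes, 1 was. In contrast, 10 of 37 S phase genes outside the rule were at least 2-fold lower and 0 higher, with medians of -1.11 and -0.92. *Pcna*, the sliding clamp of DNA polymerase, stood at 111 CPM in RC members against 517 CPM in S phase cells, and at 211 against 473 CPM in SAA, ratios of 0.214 and 0.446. The helicase genes *Mcm2* (0.228 and 0.317) and *Mcm6* (0.238 and 0.370) and the cyclin gene *Ccne1* (0.263 and 0.287) were lower too. Outside the rule, none of 9 azurophil, 13 specific granule and 20 late neutrophil genes passed 2-fold in both libraries in either direction, and none of 18 lineage transcription factor genes did.

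**Figure D2:**
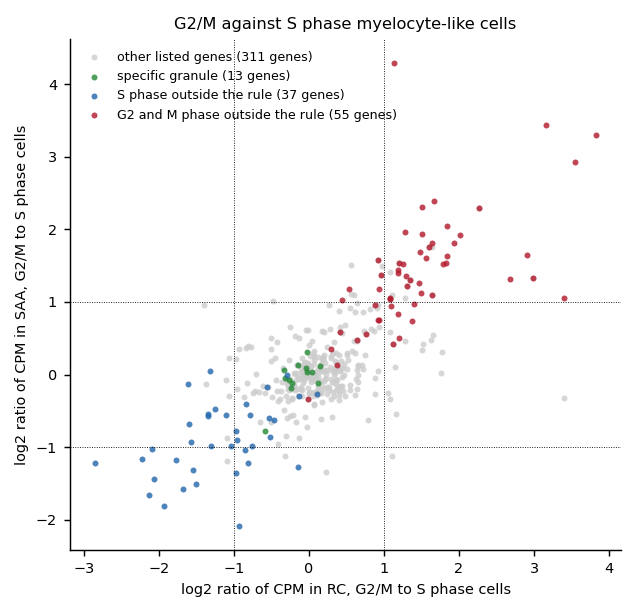
Log2 ratio of CPM in G2/M myelocyte-like cells to CPM in S phase myelocyte-like cells, for RC on the x axis and SAA on the y axis, 1 point per listed gene, with 3 lists in colour and 2-fold marked by dotted lines. G2 and M phase genes lie to the upper right (medians 1.31 and 1.33), S phase genes to the lower left (-1.11 and -0.92), and granule genes around 0.

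The promoters of 3 G2 and M phase genes with many UMIs in the members are shown because all lay in the list that set members apart from S phase cells. *Ube2c* and *Arl6ip1*, which encodes a membrane-shaping protein of the endoplasmic reticulum, had the most UMIs of the list. *Cks2*, which encodes a subunit of the cyclin-dependent kinase, came next after *Smc4*, for which no sequence is shown. The letters are from RefSeq on GRCm38.p6, 5′ to 3′ on the gene's strand, and the last base lies 2, 8 and 1 bases before the RefSeq start. Capitals mark the CHR letters TTTGAA and the CCAAT box letters CCAAT, each searched on both strands. The windows are chr2:164769679-164769927 (+ strand), chr7:118129633-118129875 (- strand) and chr13:51644982-51645231 (+ strand).
Ube2c: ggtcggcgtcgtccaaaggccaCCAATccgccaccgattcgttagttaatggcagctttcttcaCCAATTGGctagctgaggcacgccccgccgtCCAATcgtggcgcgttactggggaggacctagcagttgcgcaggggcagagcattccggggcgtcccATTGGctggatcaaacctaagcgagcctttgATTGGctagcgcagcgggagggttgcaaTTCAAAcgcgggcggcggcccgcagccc
Arl6ip1: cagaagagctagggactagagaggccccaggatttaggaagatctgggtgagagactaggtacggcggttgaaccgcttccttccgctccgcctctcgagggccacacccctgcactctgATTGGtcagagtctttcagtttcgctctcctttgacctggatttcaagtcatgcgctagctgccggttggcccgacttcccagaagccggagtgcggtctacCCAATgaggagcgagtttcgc
Cks2: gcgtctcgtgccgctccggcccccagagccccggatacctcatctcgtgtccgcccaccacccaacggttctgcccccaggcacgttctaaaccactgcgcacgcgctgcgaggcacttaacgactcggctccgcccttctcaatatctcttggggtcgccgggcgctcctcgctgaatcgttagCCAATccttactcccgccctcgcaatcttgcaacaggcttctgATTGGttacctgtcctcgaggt
The *Ube2c* window held 6 CCAAT matches, of which a pair on opposite strands overlapped, and 1 CHR match on the reverse strand at 29 to 24 bases before the start. *Arl6ip1* held CCAAT matches at 130 to 126 and 28 to 24 bases before its start, and *Cks2* at 65 to 61 and 22 to 18, with no CHR letters in either. The outermost GENCODE start lies 31 bases before the RefSeq start for *Ube2c* and 37 bases before it for *Arl6ip1*. The CHR match of *Ube2c* and the nearer CCAAT match of *Arl6ip1* thus lie within the GENCODE genes. Within 250 bases before the start, CCAAT was found in 35 of 47 promoters of the G2 and M phase list (74.5%) and in 34.5% of all 27025 promoters. CHR letters were found in 34.0% of the list and 16.3% of all, and both motifs in 31.9% and 5.73%. For 29 promoters of S phase genes, the CCAAT share was 75.9% and the CHR share 13.8%. Among lists outside the cell cycle, CHR shares ran from 0% of 8 MHC class II promoters to 41.7% of 12 interferon-gamma-inducible GTPase promoters. CCAAT shares ran from 8% of 25 promoters of apoptosis regulators to 87.5% of the MHC class II promoters. Both motifs together reached at most 13.3% in these lists, for specific granule genes. A match of letters is a description and not a bound site.

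Against granulocyte-like cells that were not cycling (K under 5, 36 in RC and 60 in SAA), the members had higher levels of histone and mitotic genes and lower levels of late neutrophil genes. Of 5195 genes, 339 were at least 2-fold higher in both libraries (6.53%) and 36 lower (0.693%). Of 55 G2 and M phase genes, 49 were at least 2-fold higher, as were 22 of 34 condensin and kinetochore genes and 19 of 28 histone genes. *Hist1h2ap*, a replication-dependent histone H2A gene, stood at 705 CPM in RC members against 6.02 CPM, and at 813 against 19.5 CPM in SAA. Of 33 S phase genes, 5 were higher. Of the SAA non-cycling cells, 4 had C under 50. T or NK markers, which include *Nkg7*, summed to 495 CPM in this set and 396 CPM in SAA members. In RC they summed to 120 CPM in non-cycling cells and 251 CPM in members. In the other direction, 5 of 21 late neutrophil genes were lower: *BC100530*, a stefin gene, had ratios of 0.0546 and 0.0526, and *S100a6*, a calcium-binding protein gene, 0.235 and 0.185. *Ifitm6*, a gene of the interferon-induced transmembrane family, was lower in members than in non-cycling cells in both RC (0.260) and SAA (0.341). The 13 specific granule genes tested had medians of -0.30 and -0.44, and 0 passed 2-fold.

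Outside ribosomal and mitochondrial genes, the 10 most abundant transcripts of the members were *S100a8*, *S100a9*, *Camp*, *Ngp*, *Gm42418*, *Tmsb4x*, *Lcn2*, *Ltf*, *Lyz2* and *Actb*. *S100a8*, which encodes a subunit of calprotectin, took 135774 CPM of RC members and 111567 CPM of SAA members, and *S100a9*, its partner, 105294 and 79478 CPM. *Ngp*, which encodes neutrophilic granule protein, was level at 34885 and 35099 CPM (ratio 1.01, 0.993 to 1.019). *Camp* stood at 54634 CPM and 29764 CPM, with SAA at 0.545 of the RC level (0.538 to 0.551), and *Fcnb*, which encodes ficolin B, at 1527 and 950 CPM (0.622). *Ltf*, which encodes lactoferrin, stood at 4047 and 6207 CPM (1.53, 1.48 to 1.59), and *Lcn2*, which encodes lipocalin 2, 6966 and 8574 CPM (1.23). Of 17 specific granule genes tested between conditions, 0 passed 2-fold in either direction, and the median log2 ratio was 0.13 against 0.10 over all genes. The intervals of *Camp* and *Ltf* lay on opposite sides of 1, both short of 2-fold, while the median of the class lay near that of all genes. The list holds 4 rule genes, and its summed level was 122353 CPM in RC members and 101900 CPM in SAA members.

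The members spanned a range of azurophil transcripts. The sum E ran from 0 to 605 UMIs in RC (median 1.5) and from 0 to 456 in SAA (median 9), and 49 of 130 and 29 of 187 members had none. At 2600 UMIs per cell, 46.2% of RC members (37.4 to 55.1%) and 76.3% of SAA members (69.6 to 82.3%) held at least 1 azurophil UMI, against 62.3% and 84.5% without thinning. In the G2/M monocyte-like cells, the thinned shares were 40.3% and 72.0%, and in S phase cells 52.3% and 88.7%, so RC was the lower library in each of these cell sets. In non-cycling cells, they were 41.7% and 41.8%. The part of RNA from outside the cells in these shares was not tested. In summed CPM, the levels of E differed little, at 4430 CPM in RC and 4112 in SAA. *Elane*, which encodes neutrophil elastase, stood at 2103 and 1576 CPM and *Prtn3*, which encodes proteinase 3, at 1639 and 2026 CPM. Of 14 azurophil genes tested, 1 was at least 2-fold higher in SAA and 1 lower.

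When members with C of at least 50 were split by thinned azurophil UMIs into 0, 1 to 9 and 10 or more, most specific granule genes shown were lower where azurophil transcripts were more frequent, and *Fcnb* was higher. The classes held 69, 37 and 23 cells in RC and 39, 90 and 52 in SAA, and their median depths before thinning were 6600, 8879 and 13181 UMIs in RC and 6417, 8172 and 9782 in SAA. *Ltf* stood at 6656, 4283 and 201 CPM in RC, and at 12554, 8321 and 1649 CPM in SAA. *Lcn2* stood at 9883, 8129 and 1890 CPM in RC, and at 13846, 11068 and 3846 CPM in SAA. Both genes were lowest where azurophil transcripts were most frequent. *Ms4a3*, a gene of promyelocytes and their near descendants, ran the other way, at 156, 322 and 786 CPM in RC and 88.8, 316 and 496 CPM in SAA. *Fcnb* also ran this way, at 881, 1601 and 2157 CPM in RC and 572, 944 and 1257 CPM in SAA. *Ngp* was lower along the classes, at 43902, 40468 and 15184 CPM in RC and 51223, 41735 and 25141 CPM in SAA. *Cebpe* stood at 485, 447 and 351 CPM in RC and 651, 645 and 496 CPM in SAA. *Camp* changed less than *Ltf*, at 60875, 59823 and 40351 CPM in RC and 36085, 30727 and 29349 CPM in SAA, and was lower in SAA within each class. The mitotic gene *Ube2c* stood at 624, 665 and 736 CPM in RC and at 621, 496 and 451 CPM in SAA, with intervals that overlapped between neighbouring classes. *Cenpf* stood at 385, 177 and 468 CPM in RC and at 414, 342 and 192 CPM in SAA. Its intervals lay apart between neighbouring classes in RC and between the end classes in SAA. Those of *Ccnb2* and *Mki67* overlapped between neighbouring classes in both libraries. *Ltf*, *Camp*, *Ngp*, *Fcnb*, *Cebpe*, *Cenpf*, *Ccnb2* and *Mki67* belong to the rule. The classes were cut on rule genes, so this order is a description of a range and not of cell types.

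**Figure D3:**
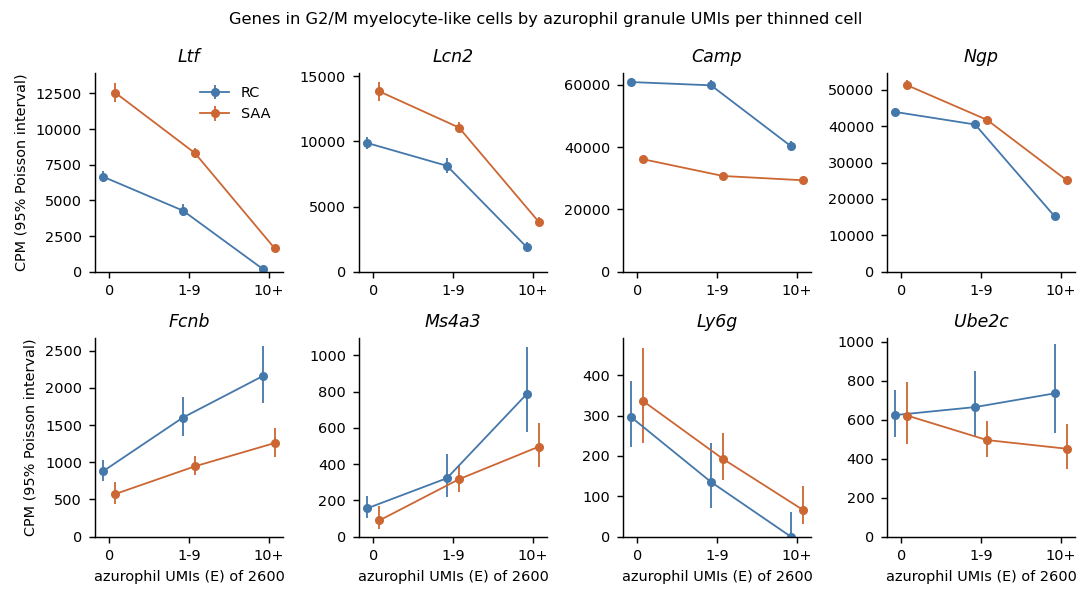
CPM (linear axis from 0) of granule and cell cycle genes in G2/M myelocyte-like cells split by azurophil UMIs per 2600 (0, 1 to 9, 10 or more), for RC and SAA, with bars for exact Poisson 95% intervals. *Ltf* falls from 6656 to 201 CPM across the classes in RC and from 12554 to 1649 CPM in SAA, while *Ube2c* stays between 451 and 736 CPM.

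Against monocyte-like cells of the same phase, few mitotic genes passed 2-fold, and the members had higher levels of granule genes and lower levels of MHC class II genes. G2/M monocyte-like cells met the same K, P and S limits with M at least C and above E, 68 in RC and 100 in SAA, of which 5 SAA cells had M under 5. Of 6274 genes, 381 were at least 2-fold higher in members in both libraries (6.07%) and 837 lower (13.3%). Scaling by trimmed mean of M values (TMM) turned this split to 630 higher and 408 lower. Of 56 G2 and M phase genes, 0 were higher and 2 lower. *Lcn2* was 436-fold (211 to 1084) higher in members in RC and 45.1-fold (39.0 to 52.4) in SAA, and *Pglyrp1*, a peptidoglycan recognition gene of granules, 37.5-fold and 174-fold. *Chil1*, a chitinase-like gene, had 191 and 409 UMIs in members and 0 in both monocyte-like sets. Of 14 specific granule genes, 8 were higher and 1 lower, as were 7 and 1 of 10 azurophil genes, and with TMM scaling 12 and 8 were higher. The lower *Lcn2* ratio in SAA came with more *S100a8* in its monocyte-like set, at 10792 CPM against 685 CPM in RC. Specific granule genes in that set went both ways between conditions, with 3 of 12 at least 2-fold higher in SAA and 4 lower.

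Lower in members than in monocyte-like cells were *Fn1*, which encodes fibronectin (0.000743 and 0.00697), *Ctsc*, which encodes the protease that activates granule proteases (0.0081 and 0.033), and *Crip1*, a LIM domain gene (0.0067 and 0.0466). All 3 MHC class II genes tested were lower, also with TMM scaling, whereas 0 of 19 MHC class I presentation genes were higher and 2 were lower, or 0 lower with TMM scaling. Of 75 oxidative phosphorylation genes, 16 were lower and 0 higher, with medians of -0.84 and -0.86 against -0.51 and -0.33 over all genes. With TMM scaling 1 was lower and 1 higher. Of 20 ribosome biogenesis genes, 8 were lower and 1 higher, or 4 and 1 with TMM scaling.

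Between conditions, the main change in the members was in interferon-inducible genes, which were higher in SAA. Of 7290 genes with at least 20 UMIs in both sums together, 588 were at least 2-fold higher in SAA (8.07%) and 285 at least 2-fold lower (3.91%), and the median log2 ratio was 0.10. Without the 6 members with C of 1, the counts were 552 and 291, and among named genes *Camp*, *Ngp*, *S100a8* and *S100a9* had values outside their counting intervals, the log2 ratio of *Camp* being -0.85 against -0.88 with all members. Of the interferon-gamma-inducible GTPases, which act on vacuoles that hold microbes, 16 of 16 tested were at least 2-fold higher, with a median log2 ratio of 3.87. Of genes induced by type I interferon, 41 of 44 were higher (median 2.67), the other 3 being *Ifit2*, *Ifitm2* and *Sp100*. Of MHC class I presentation genes, 22 of 25 were higher (median 2.27), and the other 3 were the chaperones *Canx*, *Calr* and *Pdia3*. Of other genes induced by interferon-gamma, 16 of 26 were higher and 1 lower (median 2.28). Genes in these lists with few UMIs in RC entered mainly through SAA, where they are high, so the counts describe the members and support no test. Genes named as the few exceptions of a list were picked after their values were seen.

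**Figure D4:**
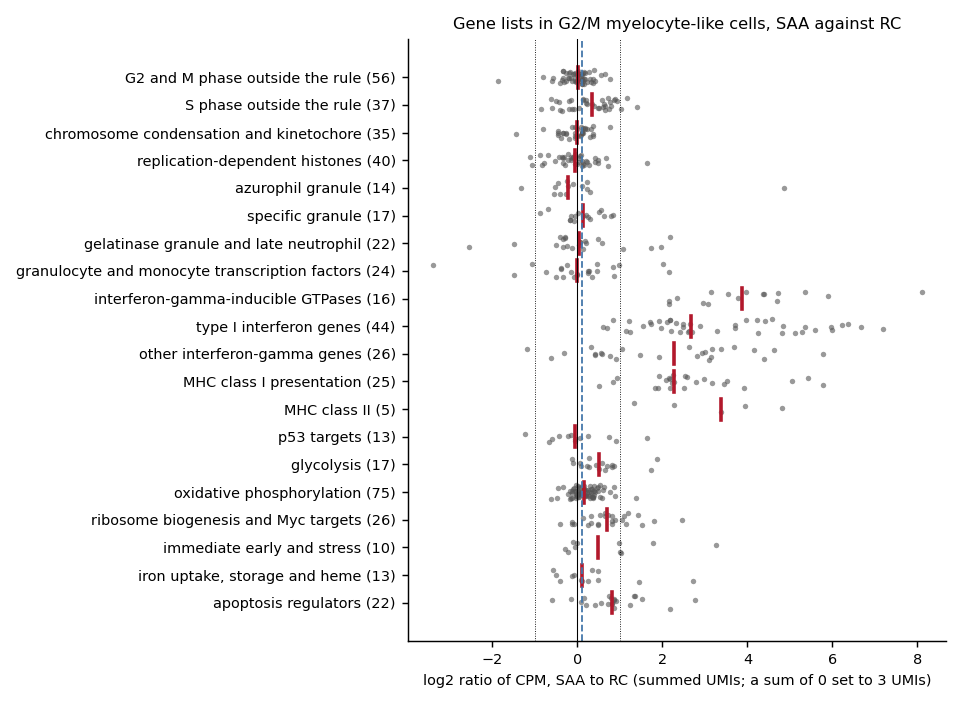
Log2 ratio of SAA to RC CPM for each gene (points) of 20 lists in G2/M myelocyte-like cells, with the list median as a red bar, the median of all genes as a dashed line and 2-fold as grey lines. The GTPase (median 3.87), type I interferon (2.67), other interferon-gamma (2.28) and MHC class I (2.27) lists lie to the right of the G2 and M phase (0.01) and specific granule (0.13) lists.

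*Gbp2*, a guanylate-binding protein gene (chr3:142620602-142638008 in GENCODE), had 1 UMI in RC members and 415 in SAA members, or 0.906 and 250 CPM (ratio 276, lower bound 49.2). It was seen in 1 of 130 RC and 115 of 187 SAA members. *Oasl2*, a 2′-5′-oligoadenylate synthetase-like gene, had 0 and 285 UMIs. This was 63.1-fold higher in SAA against a floor of 3 UMIs set for the RC sum, and the exact interval of the ratio began at 51.0. *Zbp1*, a sensor of Z-form nucleic acid, stood at 0.906 and 133 CPM, and *Isg15*, a ubiquitin-like modifier, at 1.81 and 151 CPM. The GTPase genes *Igtp* (2.72 and 161 CPM) and *Gbp7* (6.34 and 261 CPM) and the tetherin gene *Bst2* (5.44 and 222 CPM) followed.

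*Ifitm3*, which encodes an interferon-induced transmembrane protein that restricts viral entry, differed between lineages. In members it went from 124 CPM in RC to 2655 CPM in SAA (ratio 21.4, 18.04 to 25.54), and from 50.8% to 95.2% of cells. In G2/M monocyte-like cells it was already at 2015 CPM in RC and reached 3034 CPM in SAA, a ratio of 1.51. Thus the SAA levels of both cell types were near each other and the RC levels were not. The difference between the ratios was not tested, since each condition had 1 library.

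Genes of MHC class I presentation moved together. *H2-K1*, a heavy chain gene, stood at 235 CPM in RC members and 1860 CPM in SAA members (ratio 7.92, 6.98 to 9.03), and *H2-D1* at 449 and 2038 CPM (4.54). *B2m*, which encodes the light chain, stood at 552 and 2646 CPM (4.79, 4.40 to 5.23). *Tap1*, which encodes a peptide transporter subunit, stood at 29.0 and 262 CPM (9.03), and *Psmb9*, an immunoproteasome subunit gene, at 119 and 536 CPM (4.51). *H2-Q7*, a nonclassical heavy chain gene, stood at 8.16 and 350 CPM. Heavy chain genes are close in sequence and differ between the parental strains, and the reads were aligned to a C57BL/6 build, so the share of each heavy chain gene is uncertain.

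MHC class II transcripts rested on a few cells. *Cd74*, the invariant chain gene, had 0 UMIs in RC members and 127 in SAA members, found in 12 of 187 cells, whereas 93 of 100 SAA monocyte-like cells held it at 2622 CPM. At 2600 UMIs per cell, 0% (up to 2.80%) and 3.76% (1.53 to 7.60%) of members held it, against 89.0% of the SAA monocyte-like cells. All 5 class II genes tested were at least 2-fold higher in SAA members. Without called doublets, 0 of those tested were, and the log2 ratio of *Cd74* fell from 4.81 to 0.92. It was 0.91 in members with M of at most 2, a limit set after seeing the data.

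*Lipg*, which encodes endothelial lipase, had the highest exact lower bound of its ratio among genes with at least 100 UMIs (56.6, followed by 51.0 for *Oasl2*) and does not belong to the interferon lists. It had 2 UMIs in RC members and 618 in SAA members (1.81 and 372 CPM, ratio 205). It was found in 2 of 130 and 145 of 187 cells, and at 2600 UMIs per cell in 0% (up to 2.80%) and 49.5% (42.1 to 56.9%). In S phase cells it stood at 1.72 and 335 CPM, and in non-cycling cells at 0 and 370 CPM. In G2/M monocyte-like cells it was at 0 UMIs in both libraries, at median depths of 6009 and 9362.5 UMIs. The transcript was thus seen in SAA cells of the granulocyte lineage in and out of cycle, and in 0 of 168 monocyte-like cells of the same phase.

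**Figure D5:**
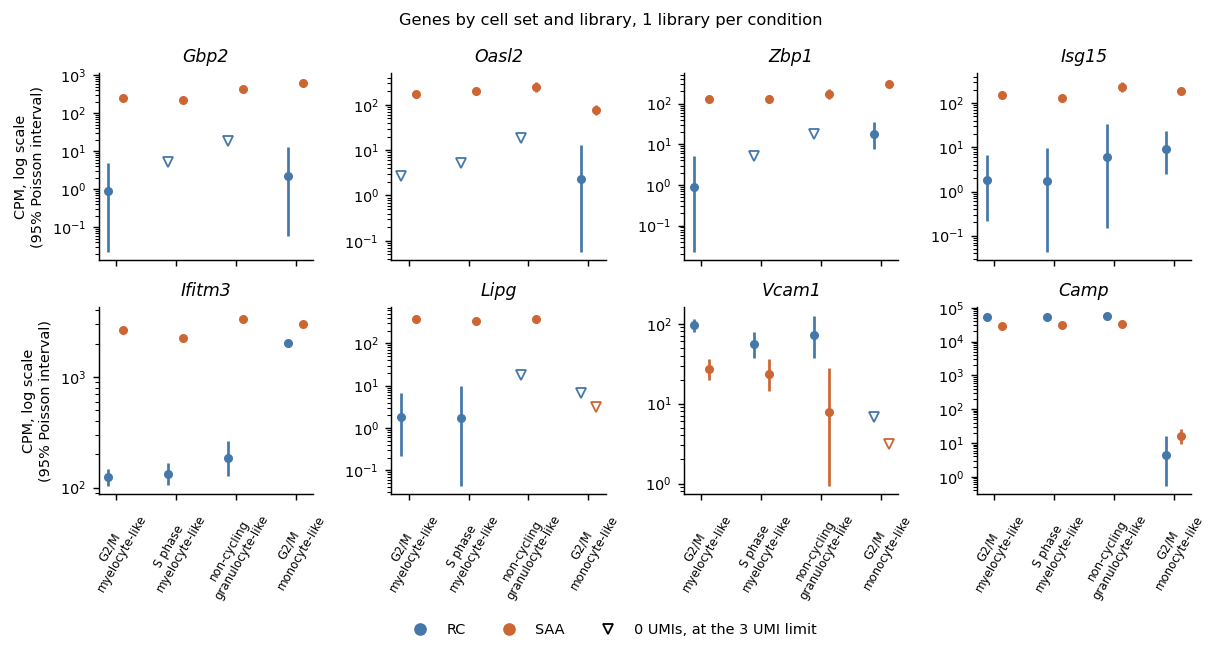
CPM (log axis) of single genes in RC and SAA for G2/M myelocyte-like, S phase myelocyte-like, non-cycling granulocyte-like and G2/M monocyte-like cells, with exact Poisson 95% intervals and sums of 0 UMIs drawn as open triangles at the level of 3 UMIs. *Lipg* reaches 335 to 372 CPM in the SAA granulocyte-lineage cells and has 0 UMIs in the monocyte-like cells, while *Gbp2* is high in all SAA cell sets.

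Interferon genes were higher in SAA in each cell set compared, and differences between the sets were not tested. Of all genes, 9.43% were at least 2-fold higher in SAA in S phase cells, 9.55% in G2/M monocyte-like cells and 14.5% in non-cycling cells, and 3.13%, 7.71% and 3.82% were lower. The median log2 ratios of all genes were 0.10 in members, 0.17 in S phase cells, 0.22 in non-cycling cells and -0.05 in monocyte-like cells. Those of the GTPase list were 3.87 in members, 3.96 in S phase cells, 4.58 in non-cycling cells and 4.24 in G2/M monocyte-like cells. For type I interferon genes they were 2.67, 3.06, 2.76 and 2.04, and for MHC class I genes 2.27, 2.50, 2.49 and 1.89. Counted once each, 92 of 108 tested genes of the interferon and MHC class I lists were at least 2-fold higher in members. The counts were 82 of 92 in S phase cells, 58 of 66 in non-cycling cells and 106 of 125 in the monocyte-like cells. The summed level of the GTPase list was 35.3 CPM in RC and 1395 CPM in SAA members, and 68.5 and 3452 CPM in monocyte-like cells.

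After *Lipg*, the genes with a promoter entry and the highest lower bounds of the ratio were *Oasl2* and *Gbp2*. Only the sequence of *Gbp2*, a gene of the GTPase list, is shown here. The window is chr3:142620413-142620631 (+ strand, RefSeq, GRCm38.p6), and its last base lies 32 bases before the RefSeq start. Capitals mark the core of the interferon-stimulated response element (ISRE), GAAANNGAAA, here on the reverse strand at 59 to 50 bases before the RefSeq start. The GENCODE start lies 61 bases before the RefSeq start, so this match lies just within the GENCODE gene.
Gbp2: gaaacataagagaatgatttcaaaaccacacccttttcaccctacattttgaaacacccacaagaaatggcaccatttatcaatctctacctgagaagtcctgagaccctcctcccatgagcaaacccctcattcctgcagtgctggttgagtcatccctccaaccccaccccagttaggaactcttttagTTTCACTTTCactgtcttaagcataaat
The ISRE core was found in 11 of 12 GTPase promoters (91.7%) and in 3.04% of all promoters within 250 bases of the start. The gamma-activated site letters TTCNNNGAA were in 58.3% of the GTPase promoters and 7.18% of all. Among type I interferon genes, 41.5% of 41 promoters held the ISRE core and 12.2% the gamma-activated site letters, and among MHC class I genes 14.3% of 21 held the ISRE core. *Oasl2* held neither in its window. Both motifs were searched on each strand and can share letters.

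The genes that were lower in SAA members were fewer and less changed. *Stfa1*, a stefin gene of late neutrophils, stood at 138 and 23.5 CPM (ratio 0.170, 0.117 to 0.244), but its UMIs came from only 10 and 5 cells. *Vcam1*, which encodes an adhesion molecule that binds integrin on blood cells, stood at 95.2 and 27.1 CPM (0.285, 0.196 to 0.407). It was seen in 51 of 130 RC members and 32 of 187 SAA members, and at 2600 UMIs per cell in 24.6% (17.5 to 32.9%) and 6.99% (3.77 to 11.7%). In S phase cells *Vcam1* stood at 55.1 and 23.3 CPM, in non-cycling cells at 72.3 and 7.79 CPM, and in monocyte-like cells it had 0 UMIs. It is also a marker of macrophages: of 7 macrophage markers, 2 had a UMI in RC members and 6 in SAA members, and *Vcam1* gave 105 of the 106 macrophage marker UMIs in RC and 45 of 61 in SAA. *Cd33*, a sialic acid-binding receptor gene of myeloid cells, stood at 68.0 and 19.9 CPM (0.292), and *Slpi*, a secreted protease inhibitor gene, at 159 and 56.6 CPM (0.357). *Igfbp4*, which encodes a binding protein of insulin-like growth factors, stood at 241 and 95.7 CPM (0.397). The linker histone gene *H1f0* (71.6 and 18.1 CPM), the histone variant gene *H2afj* (393 and 150 CPM), the initiation factor gene *Eif1* (889 and 388 CPM) and the cold-inducible gene *Rbm3* (679 and 297 CPM) were among the 15 lowest.

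Mitotic genes of the members differed little between conditions. Of 56 G2 and M phase genes outside the rule, 0 were at least 2-fold higher in SAA and 1 was lower, with a median log2 ratio of 0.01, and their summed level was 8318 and 8139 CPM. *Ccnb2*, which encodes cyclin B2, stood at 150 and 138 CPM (0.926, 0.755 to 1.14), and *Cenpf*, a kinetochore gene, at 321 and 299 CPM (0.931, 0.810 to 1.07). *Mki67*, which encodes a coat protein of mitotic chromosomes, stood at 701 and 759 CPM (1.08, 0.989 to 1.19). Each of these 3 intervals includes 1. All 3 belong to the rule, as do *Top2a* and *Stmn1* below, and the same limits on K and P chose members in both libraries. Their likeness between conditions was thus partly set by the rule and is a description only. Other genes of set P went both ways in members with C of at least 50, with *Cenpa* at 335 and 222 CPM and *Aurka* at 93.2 and 128 CPM. *Top2a*, which encodes DNA topoisomerase II alpha, stood at 731 and 1026 CPM (1.40, 1.29 to 1.53), *Stmn1*, which encodes the microtubule destabiliser stathmin, at 881 and 475 CPM (0.539, 0.490 to 0.593), and *Cks2* at 540 and 308 CPM (0.571, 0.506 to 0.643). None of these reached 2-fold. The condensin and kinetochore list had 0 of 35 genes higher and 1 lower (median -0.01), and the histone list 1 of 40 higher and 2 lower (median -0.06). In G2/M monocyte-like cells, the median of the G2 and M phase list was -0.67, with 0 of 57 genes at least 2-fold higher and 9 lower, where the median of all genes was -0.05. S phase genes in members had 3 of 37 higher and 0 lower (median 0.34). *Pcna* was below 2-fold, at 111 and 211 CPM (1.91, 1.55 to 2.36).

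The remaining lists moved less than the interferon lists. Ribosome biogenesis genes had 8 of 26 higher and 0 lower (median 0.69), or 4 of 26 higher without the members with C of 1, and apoptosis regulators 6 of 22 higher and 0 lower (median 0.82). *Bak1*, a gene of the pore-forming proteins of mitochondria, stood at 61.6 and 158 CPM (2.56, 1.95 to 3.39), and *Mcl1*, which encodes a survival factor of granulocytes, at 82.5 and 149 CPM (1.80). Glycolysis genes had 2 of 17 higher and 0 lower (median 0.51), with *Pkm*, a pyruvate kinase gene, at 471 and 761 CPM (1.61). Stress genes had 3 of 10 higher and 0 lower (median 0.49), with the chaperone gene *Hsp90aa1* at 234 and 479 CPM (2.05). Oxidative phosphorylation genes had 1 of 75 higher and 0 lower (median 0.16), iron and heme genes 2 of 13 and 0 (median 0.12), and p53 targets 1 of 13 and 1 (median -0.06). Late neutrophil genes had 4 of 22 higher and 2 lower (median 0.05), and lineage transcription factor genes 2 of 24 higher and 3 lower (median -0.01). *Cebpe*, the factor that drives specific granule genes, stood at 459 and 555 CPM (1.21).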

How the data were processed

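BM cells sorted by the authors were profiled with a droplet 5′ single-cell kit. Per the labels, reads were processed with Cell Ranger 6.0.1 on mm10, and UMI counts per gene and cell were deposited, with no normalization. Barcodes with at least 1000 genes and at most 25% mitochondrial UMIs were retained, after the study's methods. The library totals were 4066589 (RC) and 5592265 (SAA) UMIs. Counts were summed over the cells of a set and divided by the sum's total to give CPM. Intervals were exact (Poisson for CPM, conditional binomial for ratios, Clopper-Pearson for shares). Genes with at least 20 UMIs in both sums together were compared, and a 0 was set to 3 UMIs for a fold. Cells were thinned to 2600 UMIs where shares were compared, leaving out shallower cells. Doublets were called with Scrublet (scanpy 1.11.5) and kept. TMM factors came from edgeR 4.0.16. Intervals and folds were run on simulated Poisson sums. The intervals assume the same model, so this check could not cover spread between cells or mice.

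The members and the 20 gene lists were chosen with earlier results of these data known. Genes named were those of the rule, the 15 highest and 15 lowest between conditions by the interval bound nearer to 1 (at least 100 UMIs), the 10 highest and lowest against each other cell set, the 4 with most UMIs of each list, and the 10 most abundant. Other names are stated as chosen after their values were seen, as are single marker genes. Alternatives covered the cell filter, the limits of the rule, scaling, the UMI minimum, doublets and equal weight per cell.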

Additional observations from a re-analysis of the deposited data

Results flagged for a closer look

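*F13a1*, which encodes a subunit of coagulation factor XIII and is a monocyte gene of the rule, had log2 ratios of opposite sign in the cell types of the same phase. In G2/M myelocyte-like cells its log2 ratio of SAA to RC was 4.22, from 1 UMI in RC to 28 in SAA (0.906 and 16.9 CPM), and in G2/M monocyte-like cells it was -1.42, from 1476 to 553 CPM. The member UMIs came from 1 RC cell and 4 SAA cells, and the rule requires C above the monocyte sum in members. With called doublets removed, or with M of at most 2 (a limit set after seeing the data), RC members held 1 UMI and SAA members 0, so the higher SAA value rested on those cells. The difference between the log2 ratios was not tested, since each condition had 1 library.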

How the results depend on the processing

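Under the alternatives run, no named gene past 2-fold changed direction where a ratio was formed. Sizes did move. With the rule on thinned cells, 36 named genes fell below 2-fold or outside the counting interval of their main ratio, and 90 did not. These numbers were 15 and 120 with equal weight per cell and 13 and 122 with median of ratios scaling. They were 11 and 124 with TMM scaling and 11 and 119 without called doublets. No ratio was formed where both sums held at most 3 UMIs, as for *F13a1* without called doublets or with M of at most 2. The share of members was 26.5% in RC with at least 1500 genes and at most 10% mitochondrial UMIs, and 16.5% with no cell filter. With the rule on cells thinned to 2600 UMIs the shares were 11.1% and 12.1%, and with P of at least 5 they were 14.95% and 20.6%. In SAA the share was 22.4% with K of at least 10 and 22.5% with P at least 2 times S. Counts followed the UMI minimum. Between conditions, 312 genes were higher and 94 lower at 50 UMIs, and 1039 and 770 at 1 UMI. At 50 UMIs, the counts were 65 and 27 against S phase cells, 237 and 443 against monocyte-like cells, and 200 and 14 against non-cycling cells. TMM scaling gave 630 and 408 against monocyte-like cells, and 543 and 329 between conditions. Members with C of at least 50 (552 and 291) or M of at most 2 (530 and 291) were added after seeing the data. Called doublets left out gave 526 and 286. Leaving out granulocyte-like cells with C under 50 and monocyte-like cells with M under 5, also added after seeing the data, gave 101 and 76 against S phase cells, 388 and 877 against monocyte-like cells, and 359 and 37 against non-cycling cells. No paired analysis was possible because each condition had 1 library, and for the same reason no library could be left out. Depth limits genes with few UMIs: the floor of 3 UMIs set for a sum of 0 equals 2.72 CPM in RC members and 1.81 CPM in SAA members. The exact interval of a sum of 0 reaches above this floor.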
